A study of Mus musculus with 15 samples.

Results

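Immediate-early response genes were examined as a set of 34 genes, looked up by symbol in the 40174 gene rows of the count tables. The set holds the AP-1 factors of the Fos and Jun families, the Egr, Nr4a and Klf factors, Atf3, Myc, Maff and Csrnp1, the growth-restraining and stress genes of the Btg, Ier, Ifrd1 and Mcl1 kind, and the feedback inhibitors Dusp1, Dusp2, Dusp5, Dusp6, Zfp36 and Socs3. All 34 had a row, and 32 passed the filter on low counts. Fosb and Fosl1 did not pass and were not tested. The members are a list of gene symbols. They were read per library because A-line HOM replicate 1 had already been seen to stand apart in them.

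Immediate-early genes are switched on within minutes of a stimulus by transcription factors that are already present, so their first induction needs no new protein. Growth factor and stretch signals reach them through MAP kinases and serum response factor, and calcium and cyclic AMP through CREB. Their products are mostly short-lived transcription factors that go on to act on later genes, while the phosphatases and RNA-binding proteins of the set shut the response down again. In the heart they are known to respond to pressure, stretch, adrenergic stimulation and ischaemia, and also to the handling of the tissue before RNA is fixed.

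Total RNA of the left ventricle of C57BL/6 mice aged 2 months was sequenced. Wild type (WT) stood beside mice with a point mutation in Rbm20, the gene of a splicing regulator of titin and other muscle transcripts. The G-line carries S639G, labelled Rbm20 S639G +/- for heterozygous (HET) and Rbm20 S639G -/- for homozygous (HOM) animals. The A-line carries S637A, labelled Rbm20 S637A +/- and Rbm20 S637A -/- in the same way. How the 2 lines were made is not given in the sources used here. The labels give 3 libraries to each of the 5 groups and do not say whether each is a separate animal, so p-values measure the spread between libraries, which may be technical.

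Columns labelled A-line HOM replicates 2 and 3 equalled those of WT replicates 2 and 3 in all 40174 symbols. They were used once, as WT, which left 13 distinct libraries and a single A-line HOM library, replicate 1. Which label is right cannot be told from the tables, and any result against WT, or of A-line HOM, depends on it. Total counts were 17507813 for A-line HOM replicate 1 and 12959087 to 17448328 per library for A-line HET, and ran from 20324529 to 29436407 over the 9 libraries of the other groups. Levels are given as CPM, counts scaled to library size. Myl7, an atrial light chain, was at 524 CPM in WT replicate 2, 240.1 in A-line HET replicate 3 and 45.8 in G-line HOM replicate 1, and at 3.43 CPM or less in the other 10 libraries. The clock gene Arntl was at 29.0 CPM in A-line HET replicate 2 and 24.6 in G-line HOM replicate 1, against 1.17 to 5.28 elsewhere. Neutrophil markers, 8 genes, summed to 9.23 and 9.28 CPM in replicates 1 and 2 of G-line HOM and to 1.76 to 4.29 in the other 11 libraries, with Ly6g at 0 in all. The 9 platelet and erythroid genes summed to 1032 and 1103 CPM in those 2 libraries, 274 in G-line HOM replicate 3, 314 to 408 in WT, 342 to 560.1 in A-line HET, 333 in A-line HOM and 436 to 620.05 in G-line HET. The erythroid Hbb-bs held the largest part, at 603 and 655 CPM there against 153 to 344 in the other 11 libraries. The platelet genes Pf4 and Ppbp were not above the WT range there. Itga2b was at 2.13 and 2.07 CPM against 0.945 to 2.08 in WT, and Gp1ba at 13.3 and 14.1 against 11.6 to 12.8.

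The stretches before the start sites were searched for elements through which early genes are known to be reached. RefSeq promoters of build GRCm38.p6 were found for 28 of the 34 members, in 37 windows of 250 bases upstream of a start. The other 6 were Fosl1, Egr1, Egr3, Ier2, Klf10 and Myc. The counts were made on another build, so these coordinates serve the sequences only. Both strands were searched for the serum response element (CArG box, the site of serum response factor), for TGACGTCA (the cyclic AMP response element, the site of CREB and ATF factors), for TGANTCA (the AP-1 site) and for GCGNGGGCG (the EGR site). None of these motifs contains another. A window can overlap transcribed sequence: by GENCODE M21, those of Fosl2 and Zfp36 lie wholly in exons of their own gene, that of Ifrd1 in an exon of Gm7008, that of Dusp5 in an exon of Dusp5 or AC137853.2, and 3 of the 4 of Csrnp1 in exons of 1700019L13Rik or Csrnp1.

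The EGR site was in 12 of 28 members, namely Btg2, Dusp2, Fosb, Fosl2, Ifrd1, Klf2, Klf4, Maff, Nr4a1, Nr4a2, Socs3 and Zfp36, and in 5.33% of the 27025 genes of the table. The members' windows were also richer in G and C, with a median of 64.4% against 52.4% for all windows. The CArG box was in Dusp5, Egr2 and Zfp36 (3 of 28, against 1.62% of all genes), the cyclic AMP response element in Btg2, Dusp1 and Maff (3 of 28, against 1.77%) and the AP-1 site in Csrnp1 alone (1 of 28, against 7.82%). Btg2 holds a cyclic AMP response element and an EGR site in 1 window and is shown whole, at chr1:134079156-134079405 on the minus strand, 5′ to 3′, with both motifs in capitals.
Btg2: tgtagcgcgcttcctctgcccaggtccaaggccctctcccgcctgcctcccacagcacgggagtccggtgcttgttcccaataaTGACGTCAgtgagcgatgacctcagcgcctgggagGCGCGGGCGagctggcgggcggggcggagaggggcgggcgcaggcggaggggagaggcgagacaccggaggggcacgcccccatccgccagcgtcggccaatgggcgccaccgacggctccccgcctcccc
Stretches of 30 bases around single motifs follow for 5 other members that were called in a homozygous group. They lie at chr10:67537787-67537816 (plus, Egr2, CArG box), chr7:28379267-28379296 (minus, Zfp36, CArG box), chr15:79347480-79347509 (plus, Maff, cyclic AMP response element), chr5:32136382-32136411 (plus, Fosl2, EGR site) and chr12:40223231-40223260 (minus, Ifrd1, EGR site read on the opposite strand).
Egr2: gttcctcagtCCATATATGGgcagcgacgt
Zfp36: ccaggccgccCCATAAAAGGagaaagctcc
Maff: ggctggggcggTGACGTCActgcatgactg
Fosl2: tccggctgcgcGCGGGGGCGgaagggcgcg
Ifrd1: cgatggaggccCGCCCACGCatggtgacga
A match describes letters, not binding, and says nothing about why a gene changed here.

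Each mutant group had members called higher than WT, and none was called lower. G-line HOM had 14 of 32 members higher than WT (13.1% of all 17588 genes tested were called higher and 13.3% lower). G-line HET had 8 (3.97% higher and 3.54% lower), A-line HET had 6 (3.99% and 3.97%) and A-line HOM, from its single library, had 14 (2.82% and 1.86%). The median log2 fold change of the 32 members was 0.62 in G-line HOM, 0.46 in G-line HET, 0.45 in A-line HET and 1.25 in A-line HOM, while that of all genes lay between -0.01 and 0.02. The 4 comparisons share the WT libraries, so their lists are given side by side and not counted together. Counts and medians of A-line HOM, here and below, come from the library already seen to stand apart in these genes and test nothing. Calls were made with edgeR at a Benjamini-Hochberg adjusted p under 0.05 over all genes, and in bulk tissue a change in RNA per cell and a change in the share of cells cannot be told apart. The plot of all members by library shows the direction and where it is uneven.

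**Figure D1:**
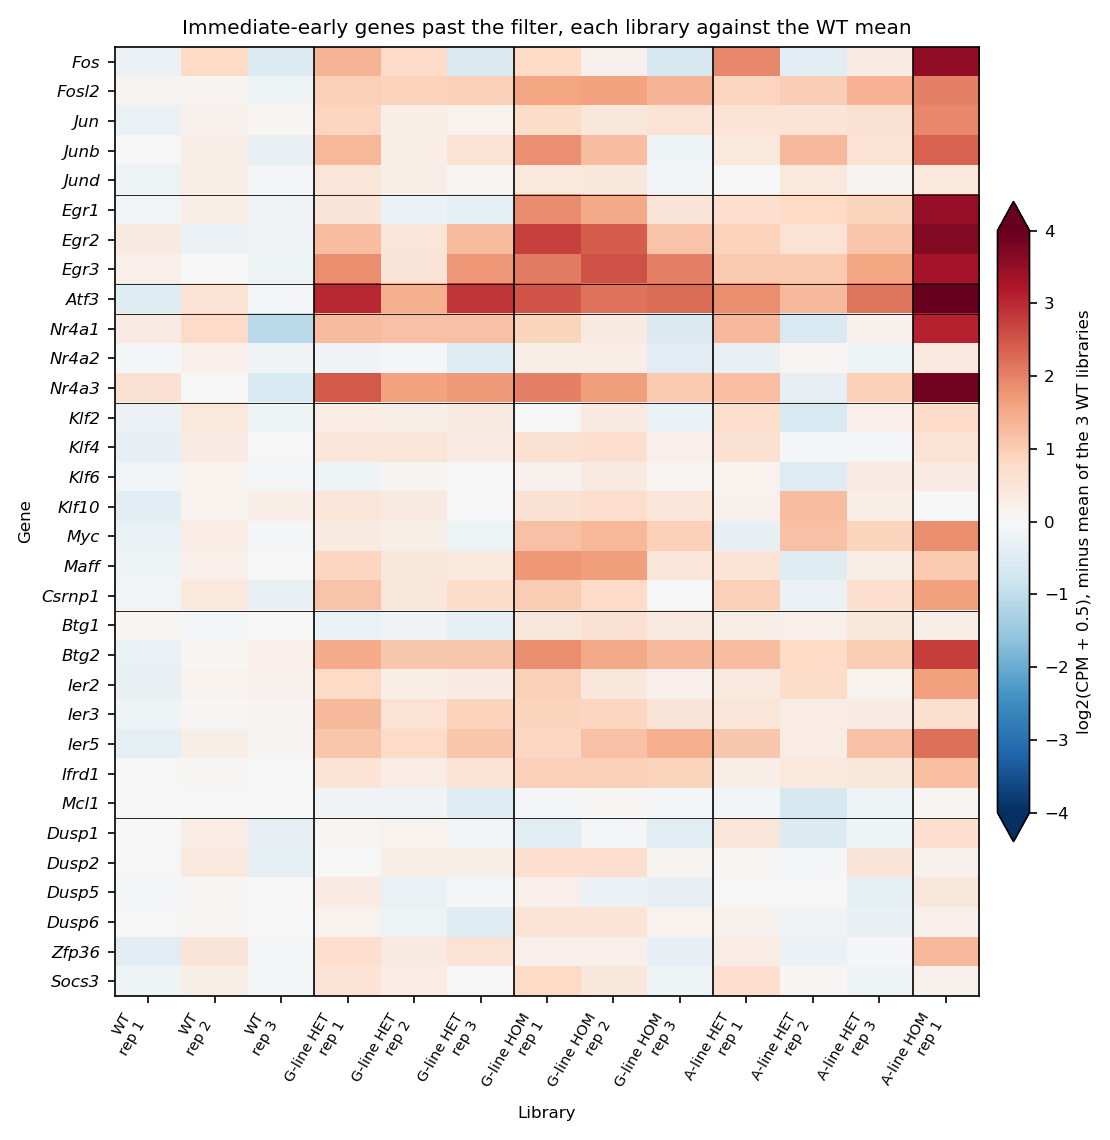
Heat map of log2(CPM + 0.5) minus the mean of the 3 WT libraries, with 32 immediate-early genes in rows, ordered by role, and the 13 distinct libraries in columns; the colour scale ends at -4 and 4. The A-line HOM column is the deepest red for Fos, Egr1, Egr2, Atf3 and Nr4a3, and the Klf and Dusp rows stay pale.

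These counts depend on the 2 shared libraries. Counted as A-line HOM, which leaves WT with 1 library, they gave 0 members called in all 4 comparisons with WT. Left out, they gave 8 in G-line HOM (Fosl2, Jun, Egr3, Atf3, Btg2, Ier3, Ier5 and Ifrd1), 1 in G-line HET (Btg2), 2 in A-line HET (Fosl2 and Btg2) and 9 in A-line HOM (Fosl2, Jun, Egr1, Egr3, Atf3, Btg2, Ier5, Zfp36 and Ifrd1). Counted in both groups, they gave 6, 1, 0 and 0 in the same order. None of these settings turned a called member the other way. Without the 3 libraries that hold atrial transcripts A-line HET kept 2 of its 6, Btg2 and Fosl2.

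Markers of the cell types in the tissue also differed between the groups. The 10 cardiomyocyte markers summed to 44968 to 49735 CPM in G-line HOM, below the 58508 to 64734 of WT. Beside 13.3% of all genes, 7 of these markers were called lower there. Their sums were 52343 CPM in the A-line HOM library, 46749 to 59465 with A-line HET and 56317 to 62462 with G-line HET. Myh6, the highest of these markers, was at 15827 to 18152 CPM in G-line HOM against 23237 to 26119 in WT. Tnnt2 went the other way in G-line HOM replicates 1 and 2, at 5501 and 5673 CPM against 3841 to 4131 in WT. In G-line HOM replicate 3 Tnnt2 was at 3889 CPM. The 8 fibroblast markers summed to 3382 to 4309 CPM in G-line HOM against 1657 to 3046 in WT. Beside 13.1% of all genes, 3 of the 8 were called higher there. In the other groups their sums lay between 2441 and 4382 CPM and none was called. The 8 smooth muscle and pericyte markers summed to 872 to 1348 CPM over the mutant libraries, all below the 1656 to 1728 of WT. Only Abcc9 stood clear of WT in every mutant library, at 254 to 439 CPM against 575 to 758. Pdgfrb and Myh11 overlapped WT, at 87.6 to 125 and 25.7 to 181 CPM against 90.1 to 102 and 30.7 to 118. Tagln was at 0.114 CPM or less throughout. Of the 7 tested markers of this list 3 were lower in G-line HOM, 2 in G-line HET, 1 in A-line HET and none in A-line HOM. Of all genes 13.3%, 3.54%, 3.97% and 1.86% were called lower in the same order. The part of these shifts in the member counts was not tested.

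Of the AP-1 factors, which bind DNA as Fos-Jun pairs, Fosl2 was higher in every mutant group and Jun in both homozygous groups. Fosl2 stood at 24.2, 24.2 and 19.4 CPM in WT replicates 1 to 3, at 43.9, 42.8 and 43.8 for G-line HET and at 67.5, 70.1 and 58.8 for G-line HOM. In the A-line, Fosl2 stood at 41.05, 45.2 and 59.99 CPM in HET and at 91.5 in HOM. All 10 mutant libraries lay above all 3 WT libraries, and the A-line HOM library was the highest. Over WT it rose on the log2 scale by 0.94 ± 0.13 (SE) for G-line HET, 1.53 ± 0.13 for G-line HOM, 1.11 ± 0.13 for A-line HET and by 2.02 ± 0.17 for A-line HOM, with adjusted p-values of 0.000727, 5.82e-06, 0.000245 and 4.48e-05. Jun stood at 13.01, 17.98 and 16.7 CPM in WT replicates 1 to 3, at 29.01, 19.1 and 17.4 for G-line HET and at 26.3, 21.9 and 23.7 for G-line HOM. In the A-line, Jun stood at 23.2, 23.2 and 24.4 CPM in HET and at 61.02 in HOM. The A-line HOM library was far above any other, and in both HOM groups and A-line HET the libraries stood clear of WT. Jun, the usual partner of Fos, rose by 0.59 ± 0.17 for G-line HOM (adjusted p = 0.0188) and by 1.94 ± 0.22 for A-line HOM (adjusted p = 0.000329). In G-line HOM that call failed on leaving out WT replicate 1 (adjusted p = 0.088), G-line HOM replicate 1 (0.0734) or the atrial libraries (0.0733), with a range of 0.00969 to 0.453 over its 18 alternatives.

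Junb stood at 1.202, 1.51 and 0.876 CPM in WT replicates 1 to 3, at 3.71, 1.51 and 1.98 for G-line HET and at 5.41, 3.44 and 0.986 for G-line HOM. In the A-line, Junb stood at 1.73, 3.62 and 2.02 CPM in HET and at 8.06 in HOM. Libraries of G-line HOM were uneven, with replicate 3 within the WT range, and the A-line HOM library was the highest of all. Junb, another Jun-family factor, rose by 2.74 ± 0.67 for A-line HOM (adjusted p = 0.0413), a call lost on leaving out any 1 WT library (adjusted p = 0.106, 0.0645 and 0.123 without replicates 1, 2 and 3; 0.00302 to 1 over its 15 alternatives). In G-line HOM its difference was 1.47 ± 0.54 (adjusted p = 0.0674). Fos itself was not called in any comparison. Fos stood at 1.33, 3.22 and 0.959 CPM in WT replicates 1 to 3, at 5.07, 3.15 and 0.953 for G-line HET and at 3.22, 1.93 and 0.892 for G-line HOM. In the A-line, Fos stood at 7.57, 1.11 and 2.18 CPM in HET and at 24.8 in HOM. Fos ran from 0.892 to 7.57 CPM over the other 12 libraries, whose groups overlapped, and the A-line HOM library lay above them all. Its log2 difference from WT there was 3.74 ± 0.99 with an adjusted p of 0.0686, and DESeq2 called it. The within-group SD of Fos, 0.92 on the log2 scale, was the widest of the members, whose median was 0.33 against 0.21 for all genes. Jund, which is expressed more steadily than its relatives, ran from 4.17 to 6.96 CPM and was called in no comparison. Fosb had between 0 and 18 counts in a library, with 17 in A-line HOM replicate 1 and 18 in WT replicate 2, and Fosl1 had at most 3.

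**Figure D2:**
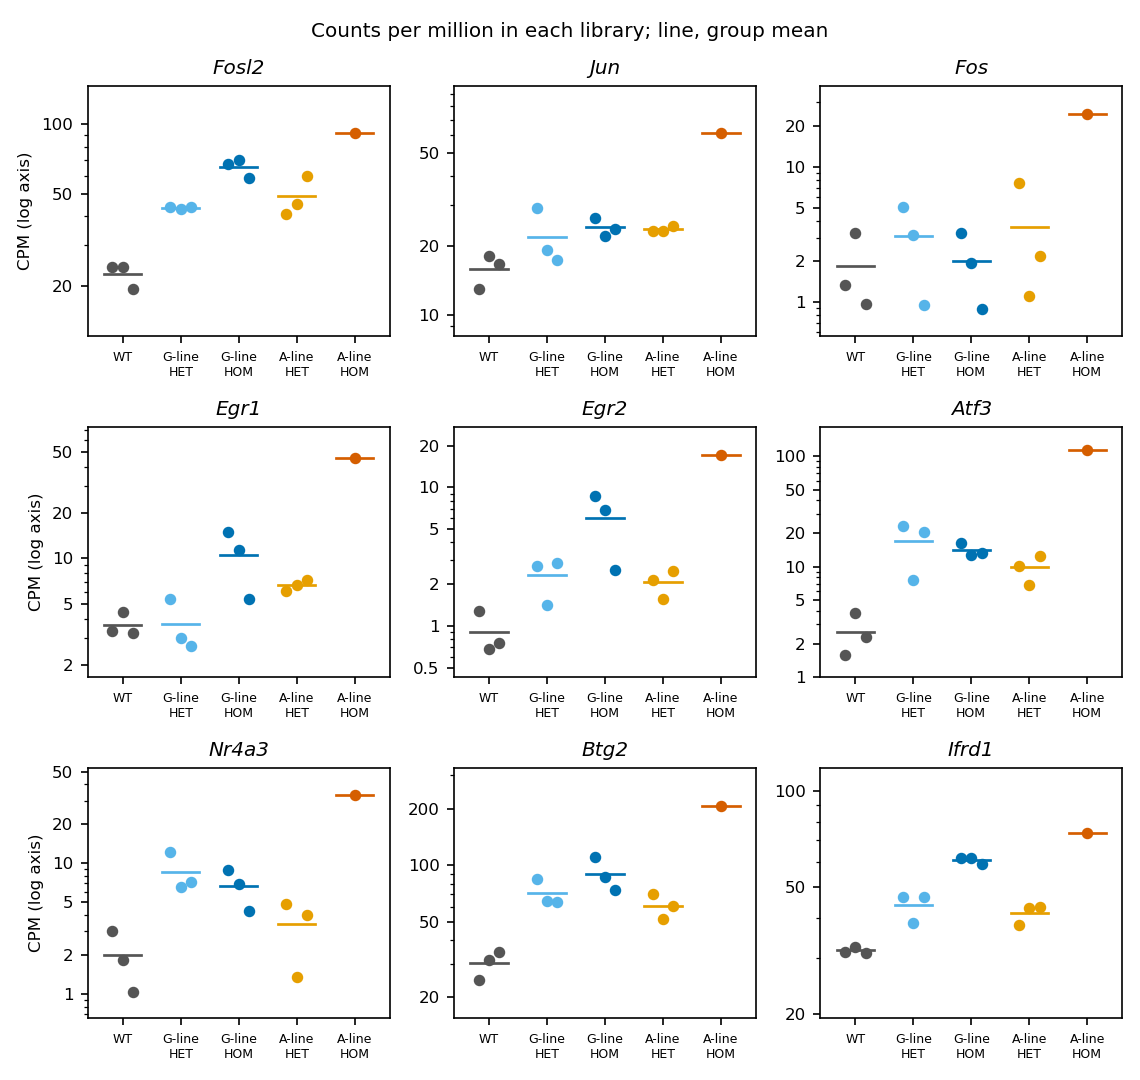
CPM (log axis, scaled per gene) of 9 members in each of the 13 libraries, by group, with a line at the group mean; A-line HOM holds 1 library. Fosl2 and Ifrd1 step up from WT to G-line HET to G-line HOM, and Btg2 lies above WT in every mutant library. Fos is scattered in all groups of 3, and the A-line HOM point is the highest in each panel.

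The Egr zinc-finger factors, known targets of serum response factor, were among the members with the widest fold changes. Egr1 stood at 3.35, 4.43 and 3.21 CPM in WT replicates 1 to 3, at 5.45, 2.98 and 2.64 for G-line HET and at 14.9, 11.3 and 5.45 for G-line HOM. In the A-line, Egr1 stood at 6.07, 6.71 and 7.18 CPM in HET and at 45.9 in HOM. The G-line HET libraries overlapped WT, the G-line HOM and A-line HET libraries lay above it, and the A-line HOM library was far above the rest. Egr1 rose by 1.53 ± 0.35 for G-line HOM (adjusted p = 0.00681) and by 3.64 ± 0.42 for A-line HOM (adjusted p = 0.000896), and differed by 0.01 ± 0.36 for G-line HET and 0.86 ± 0.36 for A-line HET (adjusted p = 0.992 and 0.183). Egr2 stood at 1.29, 0.681 and 0.75 CPM in WT replicates 1 to 3, at 2.72, 1.43 and 2.86 for G-line HET and at 8.602, 6.88 and 2.54 for G-line HOM. In the A-line, Egr2 stood at 2.13, 1.57 and 2.500 CPM in HET and at 17.03 in HOM. Egr2, whose CArG box is printed above, was higher in all mutant libraries than in WT, and G-line HOM replicate 3 stood among the HET libraries. It rose by 2.74 ± 0.44 for G-line HOM (adjusted p = 0.000645) and by 4.23 ± 0.52 for A-line HOM (adjusted p = 0.000855), with 1.37 ± 0.45 and 1.19 ± 0.47 in the HET groups of the G-line and A-line (adjusted p = 0.0865 and 0.155).

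Egr3 stood at 0.429, 0.303 and 0.208 CPM in WT replicates 1 to 3, at 2.42, 0.648 and 2.198 for G-line HET and at 2.94, 4.24 and 2.77 for G-line HOM. In the A-line, Egr3 stood at 1.18, 1.17 and 1.92 CPM in HET and at 7.599 in HOM. Egr3, the third factor of the family, was at most 0.43 CPM in WT and above that in each mutant library. It rose in all 4 comparisons, by 2.48 ± 0.47 for G-line HET, 3.38 ± 0.46 for G-line HOM, 2.18 ± 0.49 for A-line HET and by 4.58 ± 0.54 for A-line HOM (adjusted p = 0.00583, 0.000141, 0.015 and 0.000383). In A-line HET the call failed on leaving out WT replicate 3 (adjusted p = 0.0774), A-line HET replicate 3 (0.0809) or the atrial libraries (0.173), with a range of 0.000964 to 0.738 over its 18 alternatives. In Egr1, Egr2, Junb and Maff alike, G-line HOM replicates 1 and 2 were higher than replicate 3. The same 2 libraries held the raised neutrophil sums and erythroid levels, whose part in this was not tested.

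Atf3, a CREB-family repressor induced by many stresses, had the largest rise in A-line HOM of all members. Atf3 stood at 1.59, 3.82 and 2.29 CPM in WT replicates 1 to 3, at 23.2, 7.55 and 20.8 for G-line HET and at 16.3, 12.8 and 13.3 for G-line HOM. In the A-line, Atf3 stood at 10.2, 6.76 and 12.6 CPM in HET and at 115 in HOM. Every mutant library lay above WT, the 2 G-line groups overlapped, and no other library came near the A-line HOM library. Atf3 rose by 2.73 ± 0.46 for G-line HET, 2.45 ± 0.46 for G-line HOM, 1.92 ± 0.47 for A-line HET and by 5.47 ± 0.54 for A-line HOM (adjusted p = 0.0074, 0.00357, 0.0367 and 0.000855). The A-line HET call was lost on leaving out WT replicate 1 (adjusted p = 0.123), WT replicate 3 (0.128) or any of its own libraries (0.0634, 0.0528 and 0.139 without replicates 1, 2 and 3; 0.00111 to 0.666 over its 18 alternatives). Atf3 is also a target of the integrated stress response, which runs through Atf4. Of 13 tested genes of that response 6 were higher in G-line HOM, 4 in A-line HOM, 2 in G-line HET and 4 in A-line HET, and none was lower. Of all genes 13.1%, 2.82%, 3.97% and 3.99% were called higher in the same order. Atf4 itself rose by 1.32 ± 0.11 for G-line HOM and 1.21 ± 0.14 for A-line HOM (adjusted p = 4.08e-06 and 0.000329), and Ppp1r15a, the phosphatase subunit that ends the response, by 1.28 ± 0.14 and 1.18 ± 0.19. Atf4 stood at 39.3 to 42.7 CPM in WT, 97.9 to 105 in G-line HOM, and 93.9 in the single A-line HOM library, which thus was below G-line HOM for Atf4 and above it for Atf3.

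Among the orphan nuclear receptors of the Nr4a family, Nr4a3 was called, and Nr4a1 and Nr4a2 did not pass in the reported fit. Nr4a3 stood at 3.05, 1.82 and 1.04 CPM in WT replicates 1 to 3, at 12.1, 6.56 and 7.11 for G-line HET and at 8.91, 6.93 and 4.32 for G-line HOM. In the A-line, Nr4a3 stood at 4.89, 1.34 and 3.99 CPM in HET and at 33.2 in HOM. All G-line libraries lay above WT, A-line HET overlapped it, and the A-line HOM library was the highest. Nr4a3 rose by 2.13 ± 0.49 for G-line HET, 1.78 ± 0.49 for G-line HOM and 4.08 ± 0.59 for A-line HOM (adjusted p = 0.028, 0.0225 and 0.00462). In G-line HET its call failed on leaving out WT replicate 2 (adjusted p = 0.0738), WT replicate 3 (0.0946), HET replicate 1 (0.11), HET replicate 3 (0.0525) or the atrial libraries (0.0971), with a range of 0.00206 to 0.756 over its 18 alternatives. In G-line HOM it failed on leaving out WT replicate 2 (adjusted p = 0.0641), WT replicate 3 (0.0755), HOM replicate 1 (0.0796), HOM replicate 2 (0.0548) or the atrial libraries (0.189), with a range of 0.00371 to 0.73 over its 18 alternatives. Nr4a1 was at 63.1 CPM in the A-line HOM library and at 3.04 to 17.9 in the other 12, with a difference from WT of 2.98 ± 0.74 for A-line HOM (adjusted p = 0.0598). DESeq2 called Nr4a1 there, as did edgeR with a filter at 1 CPM or without the clock-shifted libraries. Nr4a2 stood at 0.549 to 1.43 CPM, highest in the same library, and was called in no comparison.

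Btg2, Ier5 and Ifrd1 were higher in all 4 mutant groups. Btg2 stood at 24.6, 31.3 and 34.6 CPM in WT replicates 1 to 3, at 84.8, 64.2 and 63.6 for G-line HET and at 110.3, 86.4 and 73.96 for G-line HOM. In the A-line, Btg2 stood at 70.8, 51.8 and 60.7 CPM in HET and at 206 in HOM. All mutant libraries lay above WT, and the A-line HOM library was again the highest. Btg2, which restrains the cell cycle and whose promoter is printed above, rose by 1.23 ± 0.18 for G-line HET, 1.58 ± 0.18 for G-line HOM, 1.02 ± 0.18 for A-line HET and by 2.77 ± 0.23 for A-line HOM (adjusted p = 0.00154, 7.71e-05, 0.00511 and 6.4e-05). It was the 1 member whose 4 calls stood both with the shared pair left out and without any single other library. Ifrd1 stood at 31.4, 32.5 and 31.1 CPM in WT replicates 1 to 3, at 46.6, 38.6 and 46.5 for G-line HET and at 61.4, 61.6 and 58.9 for G-line HOM. In the A-line, Ifrd1 stood at 37.98, 42.9 and 43.4 CPM in HET and at 73.5 in HOM. Spread within groups was narrow, the groups stood apart from WT, and G-line HOM lay above G-line HET. Ifrd1, a transcriptional co-regulator of muscle cells, rose by 0.47 ± 0.09, 0.94 ± 0.09, 0.39 ± 0.09 and 1.22 ± 0.12 in the same order (adjusted p = 0.00583, 1.39e-05, 0.0172 and 9.51e-05). Its within-group SD, 0.0963 on the log2 scale, was the smallest of the members. Its A-line HET call failed on leaving out WT replicate 1 (adjusted p = 0.066), WT replicate 3 (0.0757), HET replicate 2 (0.0646) or HET replicate 3 (0.0766), with a range of 0.00543 to 0.7 over its 18 alternatives.

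Ier5 stood at 11.4, 17.5 and 16.01 CPM in WT replicates 1 to 3, at 32.2, 25.6 and 32.6 for G-line HET and at 26.7, 34.02 and 41.3 for G-line HOM. In the A-line, Ier5 stood at 31.8, 18.2 and 33.6 CPM in HET and at 69.7 in HOM. Mutant libraries lay above WT, though A-line HET replicate 2 did so by little. Ier5, a regulator of heat shock factor activity, rose by 1.01 ± 0.24 for G-line HET, 1.18 ± 0.24 for G-line HOM, 0.89 ± 0.25 for A-line HET and by 2.22 ± 0.31 for A-line HOM (adjusted p = 0.03, 0.00431, 0.0491 and 0.00322). Its G-line HET call failed on leaving out WT replicate 1 (adjusted p = 0.113), WT replicate 3 (0.0833), HET replicate 1 (0.116) or HET replicate 3 (0.0891; 0.000457 to 0.484 over its 18 alternatives). Its A-line HET call failed on leaving out WT replicate 1, 2 or 3 (adjusted p = 0.159, 0.054 and 0.119), HET replicate 1 (0.105) or HET replicate 3 (0.19; 0.00356 to 0.545 over its 18 alternatives).

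Ier3 stood at 11.9, 13.8 and 14.5 CPM in WT replicates 1 to 3, at 33.4, 20.3 and 25.9 for G-line HET and at 25.3, 24.7 and 19.3 for G-line HOM. In the A-line, Ier3 stood at 18.8, 16.4 and 17.1 CPM in HET and at 21.03 in HOM. Ier3, a modulator of survival signalling, was above WT in all mutant libraries and highest in G-line HET replicate 1. It rose by 0.98 ± 0.16 for G-line HET and 0.78 ± 0.16 for G-line HOM (adjusted p = 0.00239 and 0.0026), with 0.37 ± 0.17 and 0.65 ± 0.23 in the A-line HET and HOM groups (adjusted p = 0.2 and 0.126). Ier2 stood at 1.46, 2.16 and 2.21 CPM in WT replicates 1 to 3, at 3.67, 2.42 and 2.53 for G-line HET and at 4.16, 2.78 and 2.301 for G-line HOM. In the A-line, Ier2 stood at 2.68, 3.499 and 2.18 CPM in HET and at 7.08 in HOM. The A-line HOM library was the highest, both G-line groups lay just above WT, and A-line HET overlapped it. Ier2, an early nuclear protein, rose by 1.86 ± 0.36 in A-line HOM (adjusted p = 0.00984). Btg1 stood at 26.1, 23.7 and 24.6 CPM in WT replicates 1 to 3, at 20.6, 22.4 and 19.2 for G-line HET and at 34.1, 38.2 and 31.9 for G-line HOM. In the A-line, Btg1 stood at 29.3, 28.7 and 34.2 CPM in HET and at 29.5 in HOM. Btg1, a relative of Btg2, was above WT in G-line HOM and below it in every G-line HET library. It rose by 0.49 ± 0.10 for G-line HOM (adjusted p = 0.00296), differed by -0.26 ± 0.10 for G-line HET (adjusted p = 0.153), and was at 0.25 ± 0.15 for A-line HOM (adjusted p = 0.389). Mcl1, a survival factor of the Bcl2 family, ran from 122 to 201 CPM and was called in no comparison.

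**Figure D3:**
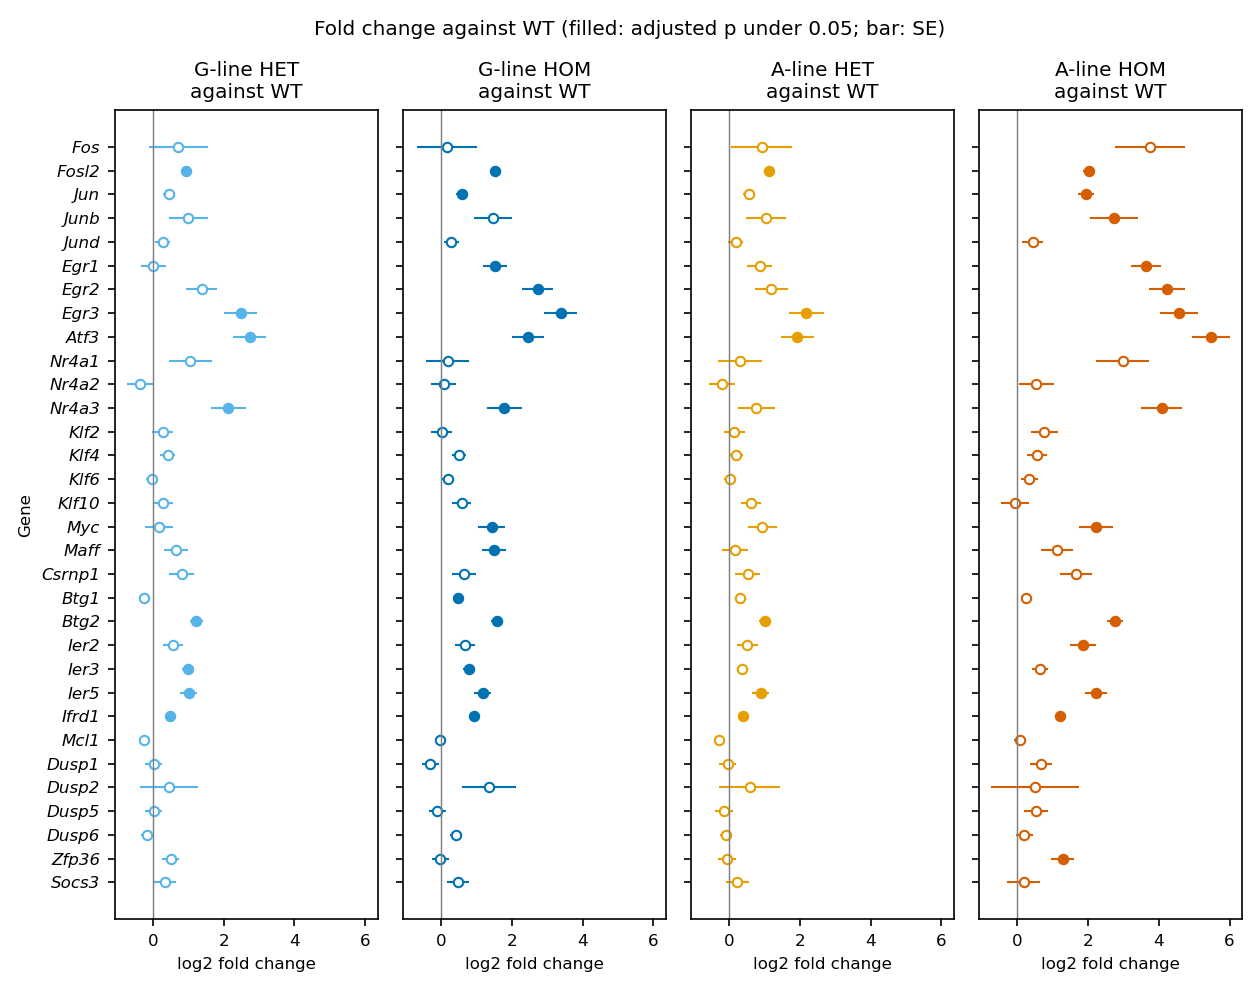
Log2 fold change against WT (x axis, bars are SE) of 32 members in the 4 mutant groups; filled points passed an adjusted p of 0.05 and open points did not, and all panels share the WT libraries. Atf3, Egr3 and Egr2 reach furthest in A-line HOM, and the Klf and Dusp genes lie near 0 apart from Dusp2, which has the widest bars.

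Myc and Maff were called among the other transcription factors, and the Klf factors were not. Myc stood at 0.859, 1.51 and 1.08 CPM in WT replicates 1 to 3, at 1.59, 1.43 and 0.916 for G-line HET and at 3.19, 3.58 and 2.63 for G-line HOM. In the A-line, Myc stood at 0.788, 3.21 and 2.55 CPM in HET and at 5.43 in HOM. Both HOM groups lay above WT, and the HET groups overlapped it. Myc, a driver of growth and ribosome production, rose by 1.43 ± 0.38 for G-line HOM and 2.22 ± 0.49 for A-line HOM (adjusted p = 0.0126 and 0.0195). The first call failed on leaving out WT replicate 1 or 3 (adjusted p = 0.0594 and 0.0509; 0.0032 to 0.229 over its 18 alternatives), and so did the A-line HOM call (adjusted p = 0.0657 and 0.0669; 0.00236 to 1 over its 15 alternatives). Maff stood at 3.18, 4.24 and 3.59 CPM in WT replicates 1 to 3, at 7.07, 5.18 and 5.06 for G-line HET and at 13.3, 12.7 and 5.26 for G-line HOM. In the A-line, Maff stood at 5.59, 2.45 and 4.47 CPM in HET and at 7.999 in HOM. G-line HOM replicates 1 and 2 were the highest libraries, replicate 3 stood among G-line HET, and A-line HET overlapped WT. Maff, a small Maf factor, rose by 1.51 ± 0.34 for G-line HOM (adjusted p = 0.0058), which was lost without the atrial libraries (adjusted p = 0.0507; 9.33e-05 to 0.114 over its 18 alternatives), and was at 1.12 ± 0.46 for A-line HOM (adjusted p = 0.209).

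Klf2 and Klf4, which are induced by flow in endothelium, ran from 5.42 to 14.8 and 11.6 to 23.4 CPM, and Klf6 from 61.3 to 112; none was called in any comparison. Klf10 stood at 12.3 to 39.8 CPM and was highest in A-line HET replicate 2, the library with Arntl at 29.0 CPM, a coincidence whose part was not tested. In G-line HOM replicate 1, with Arntl at 24.6 CPM, Klf10 was at 25.9, between replicates 3 and 2 of that group (23.4 and 27.6). The 10 endothelial markers summed to 1011 CPM in the A-line HOM library against 1330.2 to 1384 in WT. Their sums were 970 to 1123 CPM in G-line HET, 972 to 1222 in A-line HET and 1087 to 1511 in G-line HOM. The 1511 was in G-line HOM replicate 1, where Vwf was at 355 CPM against 48.8 to 119 in WT. Of these 10 markers 2 were lower in G-line HOM, 3 in G-line HET, 2 in A-line HET and 1 in A-line HOM, and none was higher. Of all genes 13.3%, 3.54%, 3.97% and 1.86% were called lower in the same order. Csrnp1, a cysteine- and serine-rich nuclear protein, ran from 5.38 to 21.9 CPM with its highest value in A-line HOM, where it differed from WT by 1.67 ± 0.45 (adjusted p = 0.0649). DESeq2 called Csrnp1 there, as did edgeR on the compared groups alone or without the clock-shifted libraries.

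Feedback members were mostly not called. Zfp36, which encodes the RNA-binding protein tristetraprolin that speeds the decay of early transcripts, was the 1 of 6 feedback members called against WT. Zfp36 stood at 6.31, 12.98 and 8.42 CPM in WT replicates 1 to 3, at 14.4, 11.4 and 13.5 for G-line HET and at 10.2, 10.2 and 6.903 for G-line HOM. In the A-line, Zfp36 stood at 11.03, 7.41 and 8.296 CPM in HET and at 22.5 in HOM. All mutant groups but A-line HOM overlapped WT. Zfp36 rose by 1.28 ± 0.32 for A-line HOM (adjusted p = 0.0377), a call lost without WT replicate 1 (adjusted p = 0.0751) or WT replicate 3 (0.11), with a range of 0.00659 to 1 over its 15 alternatives. The Zfp36 call was also lost with no filter, in a fit of the compared groups alone and with the replicate number as a block. Dusp1, Dusp5 and Dusp6, phosphatases of MAP kinases, ran from 22.8 to 53.8, 1.92 to 3.77 and 11.3 to 23.98 CPM. Dusp1 was -0.30 ± 0.24 from WT in G-line HOM and 0.67 ± 0.32 for A-line HOM (adjusted p = 0.399 and 0.297). Dusp2 was at 0 to 0.532 CPM, close to the limit of the filter. Socs3, which blocks cytokine receptors, ran from 1.92 to 4.41 CPM and was called in no comparison.

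Library by library, A-line HOM replicate 1 stood apart. It was the highest of the 13 libraries for 22 of the 32 members, against 6.54% of all genes tested. This tally describes what had been seen beforehand and tests nothing. The median member was 1.25 above the WT mean on the log2 scale in that library, 0.83, 0.66 and 0.21 in G-line HOM replicates 1, 2 and 3, 0.61, 0.29 and 0.32 in the G-line HET libraries and 0.52, 0.14 and 0.34 in those of A-line HET. The summed level of the 34 members was 1385 CPM there, 544 to 626 in WT and 568 to 874 in the other 9. With 1 library, a property of the genotype and a property of that sample cannot be told apart. Its macrophage sum (207 CPM) and neutrophil sum (2.63) were not above the range of the WT libraries (205 to 316 and 2.61 to 4.29). Hspa1a, an inducible chaperone, was at 10.5 CPM there, 0.209 to 1.06 in WT and 6.93 in A-line HET replicate 1. Hspa1b was likewise highest in A-line HOM replicate 1 and next highest in A-line HET replicate 1. The chaperone genes Hspa8 and Hsph1 were not highest in A-line HOM replicate 1. A-line HET replicate 1 was also next highest for Fos, Nr4a1, Klf2 and Dusp1, but not for the called members Atf3, Egr1, Jun and Btg2. What these values contribute was not tested.

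**Figure D4:**
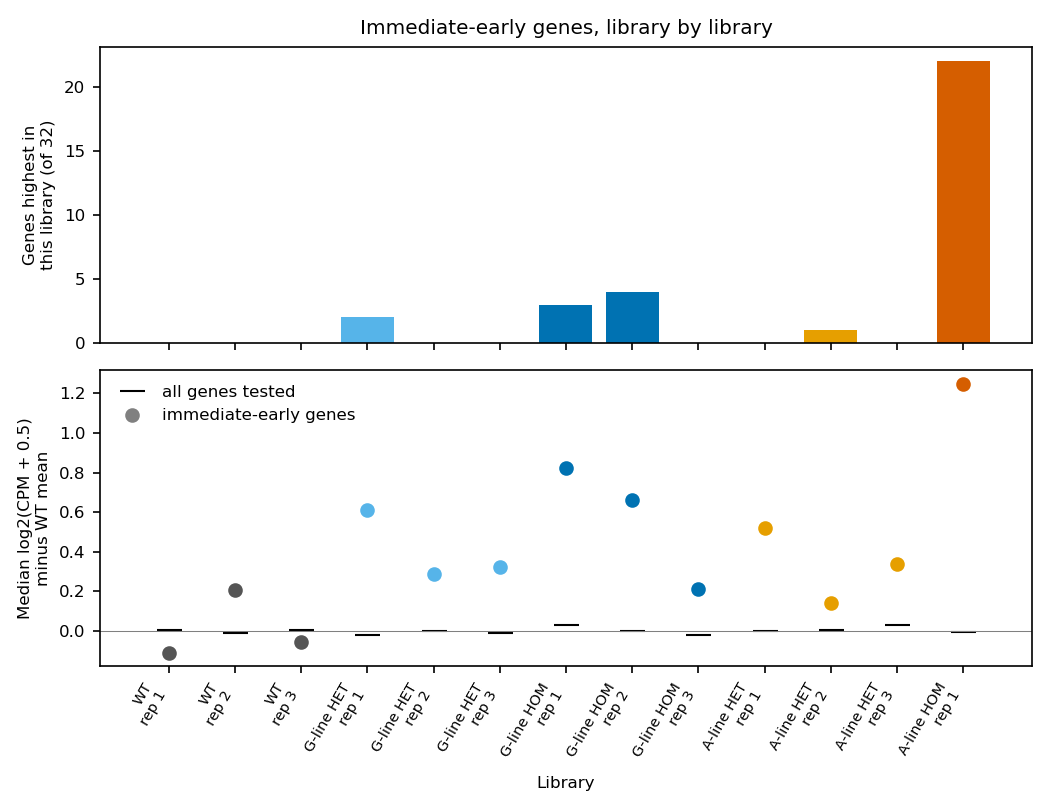
Top, number of the 32 tested immediate-early genes that were highest in each of the 13 libraries (bars from 0); bottom, median over those genes (points) and over all genes tested (black dashes) of log2(CPM + 0.5) minus the WT mean. A-line HOM replicate 1 holds 22 of the 32 highest values and a median of 1.25, and the all-gene medians stay near 0.

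In the G-line, part of the set was higher in homozygous than in heterozygous animals. In G-line HOM over G-line HET 7 of 32 members were higher and none lower (6.22% of all genes were higher and 8.42% lower): Btg1 by 0.74 ± 0.10, Fosl2 by 0.59 ± 0.13, Ifrd1 by 0.47 ± 0.09, Egr1 by 1.52 ± 0.35, Egr2 by 1.36 ± 0.40, Myc by 1.26 ± 0.38 and Dusp6 by 0.60 ± 0.17. Their adjusted p-values were 0.00156, 0.00957, 0.005, 0.0151, 0.0382, 0.0393 and 0.0287. The libraries of both groups overlapped for Egr2, and for Egr1 and Dusp6 the lowest HOM library was level with the highest HET library. Atf3 and Nr4a3, high in G-line HET, differed by -0.28 ± 0.40 and -0.35 ± 0.45 (adjusted p = 0.692 and 0.652). The count fell to 3 without G-line HET replicate 2, G-line HET replicate 3 or G-line HOM replicate 2 and to 4 without G-line HOM replicate 1. It was also 3 without the atrial or the clock-shifted libraries, and Btg1, Fosl2 and Ifrd1 were the members called in each of those cases.

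In A-line HOM over A-line HET 2 of 32 members were called, both higher (0.0227% of all genes were). Btg2 rose by 1.75 ± 0.23 and Ifrd1 by 0.83 ± 0.12 (adjusted p = 0.0278 and 0.033). Both calls were lost without A-line HET replicate 1 (adjusted p = 0.0747 for each) or replicate 2 (0.111 for each), and without replicate 3 (0.0726 for Btg2 and 0.0551 for Ifrd1). Adjusted p ran from 3.91e-08 to 0.865 over its 15 alternatives for Btg2 and from 2.11e-05 to 0.933 over its 15 alternatives for Ifrd1. DESeq2 called 10 members, those 2 with Fosl2, Jun, Egr1, Egr2, Egr3, Atf3, Ier5 and Nr4a3. Of the 32 members 28 lay above 0, with a median log2 difference of 0.93.

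Between the lines no member was called in the reported edgeR fit. For A-line HOM against G-line HOM, 0 of 32 members passed (0.0398% of all genes did in either direction), with 16 at an unadjusted p under 0.05 (2070 of all 17588 genes) and 5 called by DESeq2 (Jun, Egr1, Atf3, Btg2 and Zfp36, all higher). The median difference was 0.77, and the closest to the threshold was Jun at 1.35 ± 0.22 (adjusted p = 0.0524). Leaving out G-line HOM replicate 3 gave 2 calls, Jun and Egr1. RLE size factors or no filter gave Jun alone, and a fit of the compared groups gave Atf3 alone. For A-line HET against G-line HET, 0 passed (0.0284% of all genes), with 5 at an unadjusted p under 0.05 (2331 of all genes, a similar share), 2 called by DESeq2 (Btg1 higher and Ier3 lower) and a median of -0.09. Leaving out A-line HET replicate 1 gave 1 call, Btg1, as did no filter. The test of whether the second copy acted differently in the 2 lines called 0 members (0.0171% of all genes), with 16 at an unadjusted p under 0.05 (2439 of all genes) and 7 called by DESeq2. Atf3 had the largest difference of that kind, 3.83 ± 0.66 (adjusted p = 0.142), and Btg1 went the other way at -0.80 ± 0.18 (adjusted p = 0.143). Without A-line HET replicate 1 it called 7 members: Atf3, Btg2, Nr4a1, Nr4a3, Dusp1 and Zfp36 higher and Btg1 lower. Without G-line HET replicate 2 it called 1, Atf3. Calls between the lines thus appeared under some settings and not in the reported fit, which does not show the lines to be alike.

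Genes upstream of the set, and genes beside or downstream of it, were read from further lists, all tested in the same fit. For the lists that follow, the shares of all genes called against WT serve as the measure. They were 13.1% higher and 13.3% lower in G-line HOM, and 2.82% and 1.86% in A-line HOM. In G-line HOM the counts of the serum response factor, CREB and heat shock lists were near those shares. Of the upstream factors, 7 genes of serum response factor and its cofactors held 1 higher and 1 lower in G-line HOM, where Myocd, the cardiac and smooth muscle coactivator, rose by 0.56 ± 0.10 and Elk1 was at -0.63 ± 0.15. In A-line HOM Myocd rose by 0.72 ± 0.14 and was the only one called of the 7. Of 9 CREB factors and coactivators 1 was higher in G-line HOM (Creb1, 0.26 ± 0.08) and none of them in A-line HOM, where Crtc2 had the smallest adjusted p of the list, 0.42. The MAP kinase cascade had 1 higher and 6 lower of 20 in G-line HOM, led by Mapk14 (-0.50 ± 0.08), Rps6ka2 (-0.99 ± 0.16) and Braf (0.52 ± 0.09), and 1 higher (Braf, 0.51 ± 0.12) and 1 lower (Rps6ka2, -0.92 ± 0.24) in A-line HOM.

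Of 29 other early-response genes 8 were higher and 2 lower in G-line HOM, and 4 were higher in A-line HOM. The leading ones were Zfp36l1, a relative of Zfp36, at 1.11 ± 0.11 and 0.85 ± 0.16, Ppp1r15a, given above, Mafk at 1.21 ± 0.21 for G-line HOM and Sik1, a kinase that restrains CREB signalling, at 1.81 ± 0.38 for A-line HOM. Of 13 other phosphatases and feedback inhibitors 5 were higher and 2 lower in G-line HOM, among them Spry1 (1.06 ± 0.16), Dusp7 (-0.84 ± 0.16) and Dusp4 (1.72 ± 0.34). In A-line HOM 2 were higher, Errfi1 (1.77 ± 0.29) and Dusp8 (1.02 ± 0.19). Errfi1, an inhibitor of the EGF receptor, was at 62.9 CPM in the A-line HOM library and between 16.02 and 32.03 in the other 12.

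Of 13 tested genes of a list of mainly secreted response proteins 8 were higher and 1 lower in G-line HOM, and 3 were higher in A-line HOM. Hbegf, a ligand of the EGF receptor, rose by 1.91 ± 0.14 for G-line HOM and 1.53 ± 0.18 for A-line HOM, and Ccn1, a matricellular protein, by 1.05 ± 0.14 and 1.98 ± 0.17. Ereg, another EGF receptor ligand, rose by 5.33 ± 0.91 for G-line HOM. Ccn1 was the 1 listed gene outside the members called for A-line HOM over A-line HET (1.29 ± 0.18, adjusted p = 0.0278). Of 12 inducible heat shock genes 2 were higher and 1 lower in G-line HOM, led by Hsp90aa1 at 0.69 ± 0.13 and Hspd1 at -0.73 ± 0.18, and 2 were higher in A-line HOM, Bag3 at 0.57 ± 0.14 and Hspa1a at 4.01 ± 0.94. Of 10 wall-stress genes of cardiomyocytes 7 were higher and 1 lower in G-line HOM, and 3 were higher in A-line HOM. Ankrd1 stood at 718 to 877 CPM in WT, 5445 in A-line HOM and 6498 to 8620.4 in G-line HOM, so its order between the homozygous groups was the reverse of that of Atf3, Egr1 and Fos. The lists were chosen with earlier results of these libraries known and are not independent evidence of a direction, and their counts were made only with the shared pair as WT.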

How the data were processed

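Total RNA of 2-month mouse left ventricle was sequenced from Illumina TruSeq total RNA libraries, per the labels' protocols. Reads were handled with bcl2fastq 2.20.0.422, Trimmomatic 0.39 and STAR 2.7.4a, with mm39 as build, per the submitters' processing notes. Raw counts for each gene symbol were deposited and used here unchanged. The sources used here do not name the counting program or its strand setting, so reads of a gene and an antisense partner cannot be told apart. Counting depth per library stands in the report.

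CPM were computed here from the counts with edgeR's TMM factors. Genes reaching the CPM of 10 counts in the median library (0.422) in at least 3 libraries, with 15 counts in all, were tested. A robust edgeR 4.0.16 quasi-likelihood fit (R 4.3.3) had 1 mean per group over 13 libraries, with 8 residual degrees of freedom, so the single A-line HOM library is assumed to vary like the other groups. F tests were two-sided and Benjamini-Hochberg adjusted over 17588 genes. Members and the 20 further gene and marker lists were chosen with earlier results of these data known. Values per library are printed for members called in a homozygous group, with Fos added after its values were seen, and other members by range. Of each further list up to 3 genes with the smallest adjusted p are named, and Atf4, Errfi1 and Ankrd1 with their levels. A further gene that this rule would name is left out. Alternatives were a DESeq2 1.42.0 fit, RLE size factors, other filters, fits of the compared groups only, a replicate block, omission of Y-linked genes, Xist and ribosomal and mitochondrial RNA, omission of single libraries, of atrial or of clock-shifted libraries, and other treatments of the shared pair.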

Additional observations from a re-analysis of the deposited data

How the results depend on the processing

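Of 51 member calls DESeq2 kept 51, RLE size factors 50, a filter at 1 CPM in 3 libraries 51, no filter 43, the omission of Y-linked genes, Xist and ribosomal and mitochondrial RNA 50, the atrial omission 37 and the clock omission 43. With the shared pair counted as A-line HOM 1 was kept, with it left out 24 and with it in both groups 9. No called value changed sign under any of these. The cause of the lost calls was not tested, beyond the fewer libraries that an omission leaves.

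Members called differed by over 1.5 times from the reported count as follows. For A-line HOM against A-line HET (2 reported) DESeq2 gave 10, no filter 5, the compared groups alone 4, and both the atrial and the clock omission 1. For A-line HOM against G-line HOM (0) DESeq2 gave 5, and RLE, no filter and the compared groups alone 1 each. DESeq2 gave 2 for A-line HET against G-line HET (0), where no filter gave 1, and 7 for the second copy between lines (0). For G-line HOM against G-line HET (7) the compared groups alone gave 4 and both omissions 3. The atrial omission gave 2 for A-line HET against WT (6). With the shared pair as A-line HOM the comparisons of G-line HOM, G-line HET, A-line HET and A-line HOM with WT and A-line HOM against A-line HET gave 0, G-line HOM against G-line HET gave 1, and A-line HOM against G-line HOM and the second copy gave 1 each, Btg1, lower. With the pair left out they gave 8, 1, 2, 9 and 0, and 4 for G-line HOM against G-line HET. In both groups it gave 6, 1, 0, 0 and 0, then 2, and 1 each, Btg1 again.

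Leaving out single libraries gave 12 to 18 members for G-line HOM against WT, 6 to 8 for G-line HET, 2 to 5 for A-line HET (2 without WT replicate 3 or A-line HET replicate 3), 11 to 13 for A-line HOM, 3 to 8 for G-line HOM against G-line HET, 0 to 1 for A-line HOM against A-line HET, 0 to 2 for A-line HOM against G-line HOM, 0 to 1 for A-line HET against G-line HET and 0 to 7 for the second copy (7 without A-line HET replicate 1). A-line HOM replicate 1 is the only library of its group and could not be left out.

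Same-numbered libraries did not deviate together: 4 of 18 pairs had a correlation over 0.1, and the range was -0.36 to 0.22. The numbers were therefore not used as pairs in the reported fit. Differently numbered libraries were not correlated for reference, so this does not show that no pairing exists. With the replicate number as a block, counts were 15, 8, 4 and 12 for the comparisons of G-line HOM, G-line HET, A-line HET and A-line HOM with WT, 7 for G-line HOM against G-line HET, 0 for A-line HOM against A-line HET and 0 for the other comparisons.

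Depth limits the rarest members: Fosb had at most 18 counts and Fosl1 at most 3 in a library.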

Other observations

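Outside the immediate-early genes, 3 genes with a name and a mean of at least 1 CPM were higher in A-line HOM than in G-line HOM by edgeR, each with an adjusted p of 0.0243. Cux2, a homeobox factor, was at 15.8 CPM in the A-line HOM library against a mean of 5.91 in G-line HOM, a log2 difference of 1.43 ± 0.20 (SE). Lama5, a laminin chain of basement membranes, was at 115 CPM against 50.4, a difference of 1.19 ± 0.17. Slc38a3, a glutamine transporter, was at 68.4 CPM against 31.3, a difference of 1.13 ± 0.16. These genes were read from the same single library in which the immediate-early genes were high, and no link between the observations was tested.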
